A study of Oryza sativa with 6 samples.

Results

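The genes described are 10 loci of rice that make phytic acid in the seed or move phosphorus and phytic acid to where it is stored. They were chosen by identifier from a list, and all 10 were found among the 55986 loci of the expression table. The list names RINO1 (LOC_Os03g09250), LPA1 (LOC_Os02g57400), MRP5 (LOC_Os03g04920), IPK1 (LOC_Os04g56580) and SPDT (LOC_Os06g05160). It adds 5 loci given as inositol phosphate kinases (ITPK), which are LOC_Os10g01480, LOC_Os03g52760, LOC_Os09g34300, LOC_Os02g26720 and LOC_Os03g12840. Of the 10 genes, 4 lie on chromosome 3 and 2 on chromosome 2, and chromosomes 4, 6, 9 and 10 hold 1 each.

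Developing seeds, dehulled and taken 10 to 14 days after flowering, were compared between the wild-type rice ZH11, a japonica cultivar, and rbpl, a line with a knockdown of the RNA-binding protein RBP-L. Plants of both groups grew in chambers at 27 °C on days of 12 h light and 12 h dark, and each group had 3 biological repeats, numbered WT-1 to WT-3 for the wild type and likewise for rbpl. How the knockdown was made is not given in the sources used here. A single rbpl line was studied, so what lower RBP-L does and what else differs in that line cannot be told apart. RNA was sequenced from whole dehulled seeds, so embryo, aleurone and starchy endosperm are mixed, and fewer cells of a type and less RNA per cell cannot be told apart.

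Phytic acid, or inositol hexakisphosphate, is the main store of phosphorus in cereal grains. Its synthesis starts when glucose 6-phosphate is turned into inositol 3-phosphate, and kinases then add phosphates to the ring until every position is filled. The product is carried into the vacuole and deposited as mixed salts in globoids, which in rice lie mainly in the aleurone layer and the scutellum of the embryo. The phosphorus itself reaches the grain through the nodes and the vascular tissue of the mother plant.

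Transcript levels are given in RPKM, a read count divided by gene length and by library size, so that genes of different length can be set side by side. A change is the difference of the mean log2(RPKM + 1), rbpl minus wild type, from a limma fit over the 17507 loci with a mean of at least 1 RPKM in 1 or both groups. Adjusted p-values are Benjamini-Hochberg values over all of these loci, two-sided, with a threshold of 0.05. The library totals recovered from the RPKM steps were 44187374 to 50714582 reads. The targeted gene RBP-L (LOC_Os04g53440) read 62.8, 56.8 and 51.2 RPKM across the wild-type libraries against 15.1, 14.4 and 15.3 RPKM across rbpl, which left 26.2% of its transcript. The library WT-1 was set off from the rest: it departed by 2-fold or more from WT-2 and also from WT-3, in the same direction, at 576 tested loci, while the same count for each other library within its group was 3 to 14.

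Of the 10 genes, 9 passed the level filter and were tested. SPDT, a transporter that directs phosphorus to the grain, was the gene that rose in rbpl, 1.91-fold in RPKM. None of the other 8 passed the test, including the enzymes from RINO1 to IPK1 and the vacuolar transporter MRP5, and 0 of the 9 fell. At an unadjusted p below 0.05, which 21.6% of all tested loci met, there was again 1 rise and 0 falls. Limma-voom on recovered reads also called 1 rise and 0 falls, with 6.7% of all tested loci called. Over all tested loci 6.56% changed by the same rule, 3.46% that rose and 3.1% that fell, so 1 of 9 is near the background and is not a result about the list as a whole. The median log2 fold change of the 9 was −0.05, against −0.04 over all tested loci, and the median absolute log2 fold change was 0.11 against 0.16.

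**Figure D1:**
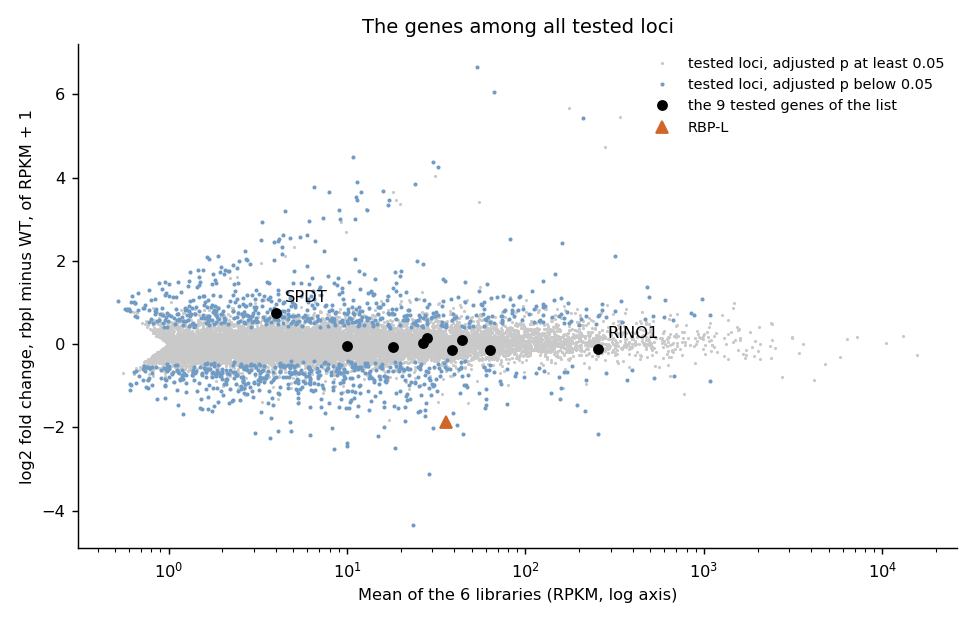
Each dot is a tested locus, with its mean RPKM over the 6 libraries on a log axis and its log2 fold change (rbpl minus wild type, of RPKM + 1) on the vertical axis. Black circles are the 9 tested genes of the list and the triangle is RBP-L. SPDT lies at 0.74 among the loci that changed, and the other 8 genes lie between −0.15 and 0.14 in the band of loci that did not pass the test.

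For the 8 genes that did not pass, the fitted log2 fold changes ran from −0.15 to 0.14 with standard errors of 0.09 to 0.19 and adjusted p-values of 0.524 to 0.940 by limma. The 95% intervals of these genes reached from −0.42 to 0.46, that is from 0.746 to 1.38 times the wild-type value of RPKM + 1. A change of 2-fold on this scale, in either direction, therefore lay outside the interval of each of these 8 genes. Smaller changes were not resolved. The p-values do not show that these levels were equal.

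**Figure D2:**
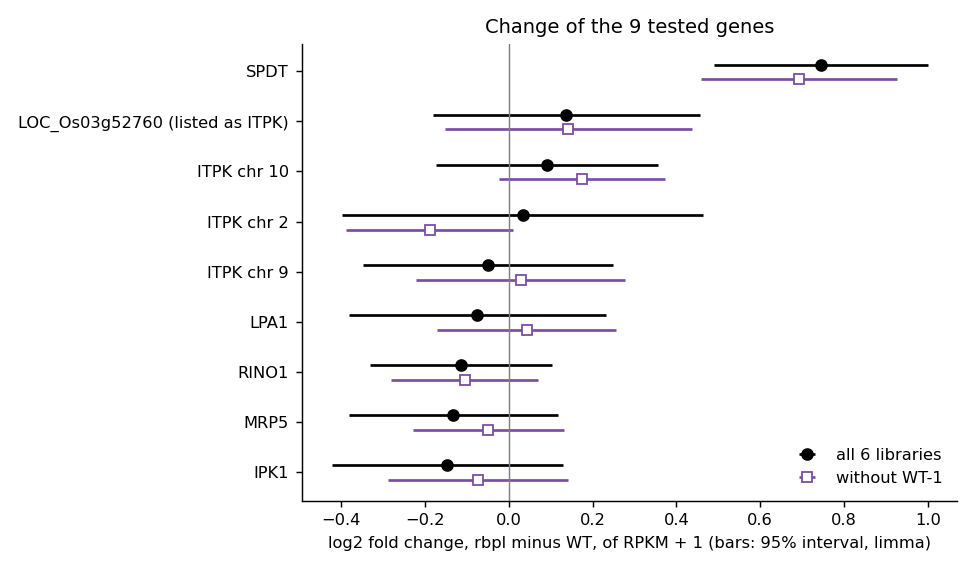
Horizontal positions are log2 fold changes of RPKM + 1, rbpl minus wild type, with 95% intervals from limma for the 9 tested genes, with all 6 libraries (filled circles) and without WT-1 (open squares). The interval of SPDT starts at 0.49 and stays above 0 in both fits, and each of the other 8 intervals includes 0 in both.

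The first step of the pathway had the highest transcript. RINO1 encodes the inositol 3-phosphate synthase, which supplies the inositol ring. It read 269.7, 266.6 and 262.9 RPKM across the 3 wild-type libraries, in order of their number, against 248.3, 250.9 and 238.7 RPKM across those of rbpl. Every rbpl library was below every wild-type library, by a small margin.

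The RINO1 means were 266.4 ± 3.39 RPKM in the wild type and 246.0 ± 6.40 RPKM in rbpl (SD, n = 3 each), so rbpl held 92.3% of the wild-type level. The fitted change was −0.11 (SE 0.09, adjusted p of 0.530 by limma), which did not pass the threshold. Its size depended on the scaling, with −0.04 under median-of-ratios and −0.06 under upper-quartile factors. An exact two-sided permutation test on RPKM gave p = 0.1, the smallest that 3 against 3 libraries allow. Groups that do not overlap were found at 30.1% of all tested loci (rbpl higher in 12.2%, lower in 17.9%) and at 2 of the 9 tested genes, RINO1 and SPDT. With 28095 to 32415 reads per library, RINO1 was also the most deeply read gene of the 10. Its coefficient of variation was 1.27% in the wild type and 2.60% in rbpl, where SPDT (1.81%) and MRP5 (2.54%) had lower values. For the other tested genes it ran up to 25.5%, at LOC_Os02g26720 in the wild type, where WT-1 stood apart.

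Among the 8753 other tested loci at or above the median level, the pattern closest to that of RINO1 over the 6 libraries was that of LOC_Os02g09890, followed by LOC_Os09g39870. The root mean square difference of the centred log2(RPKM + 1) values was 0.017 for LOC_Os02g09890 and 0.019 for LOC_Os09g39870. RINO1 differed little between the libraries, so other loci that differ little come out close to it. The distance typical of all loci was not computed, and the match is a description only. LOC_Os02g09890 stood at 9.96 ± 0.154 RPKM in the wild type and 9.04 ± 0.407 RPKM in rbpl, and LOC_Os09g39870 at 8.37 ± 0.207 and 7.69 ± 0.159 RPKM (SD, n = 3 each). Neither changed by limma (adjusted p of 0.468 and 0.541), and the files do not pair these identifiers with names.

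LPA1, named after rice mutants with low phytic acid, encodes a protein that resembles a phosphoglycerate kinase of archaea; its step in the pathway is less well defined. The wild-type libraries read 22.1, 16.5 and 17.7 RPKM and those of rbpl 16.5, 17.1 and 19.4 RPKM. WT-1 was the highest library and the groups overlapped. The log2 fold change was −0.08 (SE 0.13, adjusted p of 0.788 by limma). Without WT-1 it was 0.043, so the sign of this small difference rested on that library.

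The ITPK enzymes phosphorylate inositol phosphates with several phosphate groups already in place, on the way from inositol trisphosphate to pentakisphosphate. LOC_Os10g01480 had the highest mean level of the loci listed as ITPK, whose names were taken from the list and not checked. Wild-type values were 48.0, 41.1 and 39.4 RPKM, and rbpl values 45.3, 42.4 and 49.0 RPKM. The groups overlapped, with rbpl higher in 7 of the 9 pairs of libraries. The log2 fold change was 0.09 (SE 0.11, adjusted p of 0.693 by limma), and between 0.035 (without WT-3) and 0.17 (without WT-1, adjusted p of 0.216) when 1 library was left out.

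On the log2(RPKM + 1) scale, WT-1 departed most from WT-2 and WT-3 at LOC_Os02g26720 among the 10 genes. It was at 18.8 RPKM in WT-1 but at 31.2 and 29.9 RPKM in WT-2 and WT-3, and at 24.7, 28.5 and 26.7 RPKM in rbpl. All 3 rbpl libraries lay between WT-1 and the other wild-type libraries. The group means were nearly the same, 26.6 ± 6.78 and 26.7 ± 1.92 RPKM (SD, n = 3 each), and the fitted log2 fold change was 0.03 (SE 0.19, adjusted p of 0.940 by limma). Without WT-1 the sign turned, and the log2 fold change was −0.19 with a 95% interval from −0.39 to 0.01. The adjusted p was then 0.180 by limma. Both remaining wild-type libraries were above all of rbpl, but how many tested loci separate in this way without WT-1 was not counted. With all 6 libraries, 30.1% of the tested loci had groups that did not overlap.

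LOC_Os09g34300 was lower, at 11.4, 9.80 and 9.34 RPKM for the wild type and 8.56, 9.62 and 11.3 RPKM for rbpl. The groups covered nearly the same range, and the log2 fold change was −0.05 (SE 0.13, adjusted p of 0.858 by limma). Its sign turned without WT-1, where it was 0.028, and under median-of-ratios scaling, where it was 0.019.

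LOC_Os03g12840 did not reach the level filter and was not tested. Its wild-type values were 0.890, 0.403 and 0.494 RPKM and its rbpl values 0.425, 0.538 and 0.398 RPKM, from 37 to 87 reads per library. Its transcript was present in every library, at a level below that of each other gene of the list. The groups overlapped, and WT-1 was again the highest library.

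LOC_Os03g52760 is given as an ITPK in the list, but no name could be checked in the file, and the identifier may instead belong to the rice myo-inositol kinase gene, whose product acts on free inositol. Its values were 26.7, 25.0 and 28.0 RPKM for wild type against 35.8, 27.3 and 25.7 RPKM for rbpl. The highest value was that of rbpl-1, while the other rbpl libraries lay within the wild-type range. The log2 fold change was 0.14 (SE 0.14, adjusted p of 0.616 by limma), and −0.0033 without rbpl-1.

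The 5 loci listed as ITPK summed to 105.9, 107.4 and 107.1 RPKM for wild type against 114.9, 108.4 and 113.2 RPKM for rbpl. The sum was thus more even between libraries than its parts. It was higher in each rbpl library than in each wild-type library (exact two-sided permutation p of 0.1, the smallest possible). LOC_Os03g52760, which may not be an ITPK, held 31.2% of the sum in rbpl-1 and 22.7% to 26.2% in the other libraries. The separation is therefore that of the 5 listed loci together, and it was not tested without LOC_Os03g52760. Of all tested loci taken singly, 12.2% also had each rbpl library above each wild-type library. The share of LOC_Os02g26720 in the sum was 17.8% in WT-1 and between 21.5% and 29.0% in the other 5 libraries. That of LOC_Os10g01480 was 45.3% in WT-1 and between 36.8% and 43.3% elsewhere, so in WT-1 the share of LOC_Os10g01480 was the highest of the 6 and that of LOC_Os02g26720 the lowest. Without LOC_Os03g52760, whose name is in doubt, 4 listed loci remain, of which 3 were tested. Of these 3, 0 changed by limma (0 at an unadjusted p below 0.05, and 0 by limma-voom). Against the 6.56%, 21.6% and 6.7% of all tested loci that met these rules, 0 of 3 does not set these loci apart. ITPK genes outside the list were not examined. How the authors counted reads shared by members of a gene family is not given in the sources used here.

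IPK1 encodes the inositol pentakisphosphate 2-kinase, which adds the last phosphate and so completes phytic acid. It had the second highest level of the list, at 73.4, 63.8 and 61.8 RPKM for wild type against 54.6, 58.2 and 66.7 RPKM for rbpl. The rbpl-3 library was above WT-2 and WT-3, and the groups overlapped. The means were 66.3 ± 6.18 and 59.8 ± 6.19 RPKM (SD, n = 3 each), and the log2 fold change was −0.15 (SE 0.12, adjusted p of 0.524 by limma). It was −0.074 without WT-1, −0.086 without rbpl-1, −0.23 without rbpl-3 and −0.073 under median-of-ratios scaling.

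MRP5, an ABC transporter of the multidrug resistance-associated class, carries phytic acid into the vacuole. Values of 45.5, 37.2 and 39.0 RPKM were found for wild type, and of 36.6, 36.0 and 37.8 RPKM for rbpl. Only rbpl-3 reached into the wild-type range, above WT-2. The log2 fold change was −0.13 (SE 0.11, adjusted p of 0.526 by limma), −0.05 without WT-1, which was the highest library, and −0.06 under median-of-ratios scaling.

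The ratio of RINO1 to IPK1, the first to the last enzyme, was 3.68, 4.18 and 4.25 in the wild type and 4.54, 4.31 and 3.58 in rbpl, on the RPKM scale. The ratio of IPK1 to MRP5 was 1.61, 1.71 and 1.59 in the wild type and 1.49, 1.62 and 1.76 in rbpl. Both ratios overlapped between the groups (exact two-sided permutation p of 0.7 and 1, of which 0.1 is the smallest possible).

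SPDT is a plasma membrane transporter of the sulfate transporter-like family. In rice it is known for its role in the nodes, where it directs phosphorus to the developing grain, and its loss lowers grain phosphorus and phytic acid. The seed samples held its transcript at a low level, 2.48, 3.18 and 2.61 RPKM across the wild-type libraries and 5.38, 5.27 and 5.18 RPKM across those of rbpl. These values came from 300, 361 and 339 reads in the wild type and 657, 678 and 644 reads in rbpl.

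Every rbpl library was above every wild-type library in SPDT, and over the 9 pairs of libraries the ratio ran from 1.63 to 2.16. The means were 2.76 ± 0.374 RPKM in the wild type and 5.28 ± 0.096 RPKM in rbpl (SD, n = 3 each). The fitted log2 fold change was 0.74 (SE 0.11, adjusted p of 0.00813 by limma); on this scale the change of a low gene is understated, and limma-voom on recovered reads gave 0.95. A log2 fold change at least as high was found at 2.43% of the tested loci. By the exact permutation test p was 0.1, again the smallest possible.

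WT-1 was the lowest of the libraries in SPDT, and without it the ratio of means was 1.82 and the log2 fold change 0.69 (adjusted p of 0.001 by limma; 18% of all tested loci were then called). Without rbpl-1 the adjusted p was 0.0562 and without rbpl-2 it was 0.0522, with log2 fold changes of 0.73 and 0.75. The difference was thus about as large but did not pass the threshold in those 2 fits, in which 2.03% and 2.22% of all tested loci were called.

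**Figure D3:**
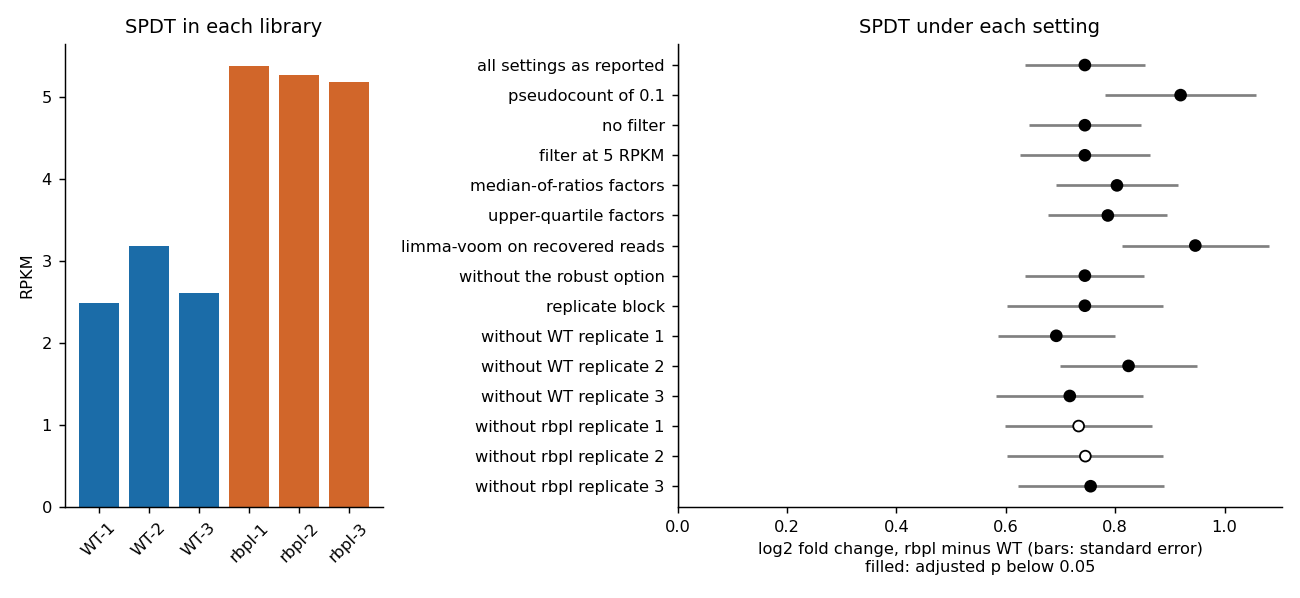
On the left, bars give the RPKM of SPDT in each library, from 0; the wild-type libraries lie between 2.48 and 3.18 and the rbpl libraries between 5.18 and 5.38. On the right, points give its log2 fold change with the standard error under each setting; all lie between 0.69 and 0.95, and the open points, without rbpl replicate 1 or 2, did not pass the threshold.

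Of the 20 tested loci nearest to SPDT on chromosome 6, 10 on each side in order of locus number, 0 changed by limma and 0 by limma-voom, and 5 had an unadjusted p below 0.05. Over all tested loci the shares were 6.56%, 6.7% and 21.6%, so these counts do not set the neighbours apart, and the lowest adjusted p among them, 0.0506, was just above the threshold. Their log2 fold changes ran from −0.77 to 0.35 with a median of −0.06, and the lowest of them was about as large in size as the 0.74 of SPDT. Without WT-1, 2 of the 20 were called, against 18% of all tested loci.

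Relative to the pathway, SPDT was a minor transcript. The ratio of RINO1 to SPDT in RPKM was 108.6, 83.7 and 100.9 in the wild type and 46.2, 47.6 and 46.0 in rbpl. SPDT held 0.551 ± 0.084% of the summed RPKM of the 10 genes in the wild type and 1.10 ± 0.026% in rbpl (SD, n = 3 each). RINO1 alone held 53.1 ± 1.03% and 51.5 ± 1.65%. The sum itself was 519, 495 and 491 RPKM for wild type and 476, 476 and 481 RPKM for rbpl. It was lower in each rbpl library than in each wild-type library (exact two-sided permutation p of 0.1, the smallest possible). Of all tested loci taken singly, 17.9% were lower in this way. RINO1, which held most of the sum, did not pass the limma threshold.

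The order of the mean levels over all 6 libraries was RINO1, IPK1, LOC_Os10g01480, MRP5, LOC_Os03g52760, LOC_Os02g26720, LPA1, LOC_Os09g34300, SPDT and LOC_Os03g12840. RINO1 was above 97.9% of the tested loci, IPK1 above 91.5%, and SPDT above 35.3%. The gap after RINO1 was wide, with RINO1 3.58 to 4.54 times as high as IPK1 within a library. LOC_Os10g01480 exceeded MRP5 in 6 of 6 libraries, but by as little as 1.01-fold, and their ranges overlapped. LOC_Os03g52760 was above LOC_Os02g26720 in 2 of 6 libraries, so these neighbours did not differ beyond their spread. LOC_Os02g26720 was above LPA1 in 5 of 6, and WT-1 alone made their ranges overlap (18.8 against 22.1 RPKM). Elsewhere LOC_Os02g26720 read 24.7 to 31.2 RPKM and LPA1 16.5 to 19.4 RPKM. All other neighbours in the order had ranges that did not overlap over the 6 libraries.

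**Figure D4:**
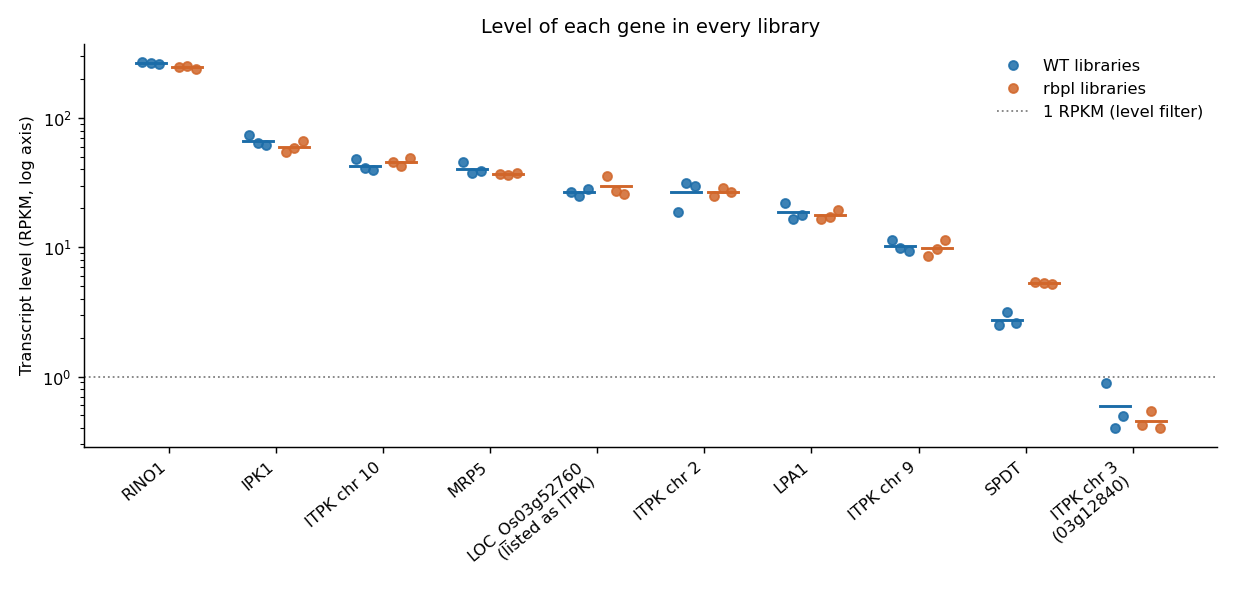
Points give the RPKM of each gene in each library on a log axis, wild type on the left and rbpl on the right of each position, with lines at the group means. The genes span from RINO1 at 238.7 to 269.7 RPKM down to LOC_Os03g12840, which lies below the dotted line at 1 RPKM, and SPDT is the gene whose groups stand clearly apart.

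Much of the spread among the wild-type values came with WT-1. It was the highest library in 6 of the 10 genes (RINO1, LPA1, MRP5, IPK1, LOC_Os09g34300 and LOC_Os03g12840) and the lowest in 2 (SPDT and LOC_Os02g26720). Over all tested loci WT-1 was the highest or lowest of the 6 libraries in 65.3%, and each other library in 22.6% to 33%, so this pattern was not limited to these genes. On the log2(RPKM + 1) scale, WT-1 differed from the mean of WT-2 and WT-3 by 0.35 in LPA1, 0.25 in MRP5, 0.22 in IPK1 and −0.67 in LOC_Os02g26720, but by 0.03 in RINO1. The part of WT-1 in the results is given by the fits without it, in which SPDT was again the gene called among the 9 and the lowest adjusted p of the others was 0.180.

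**Figure D5:**
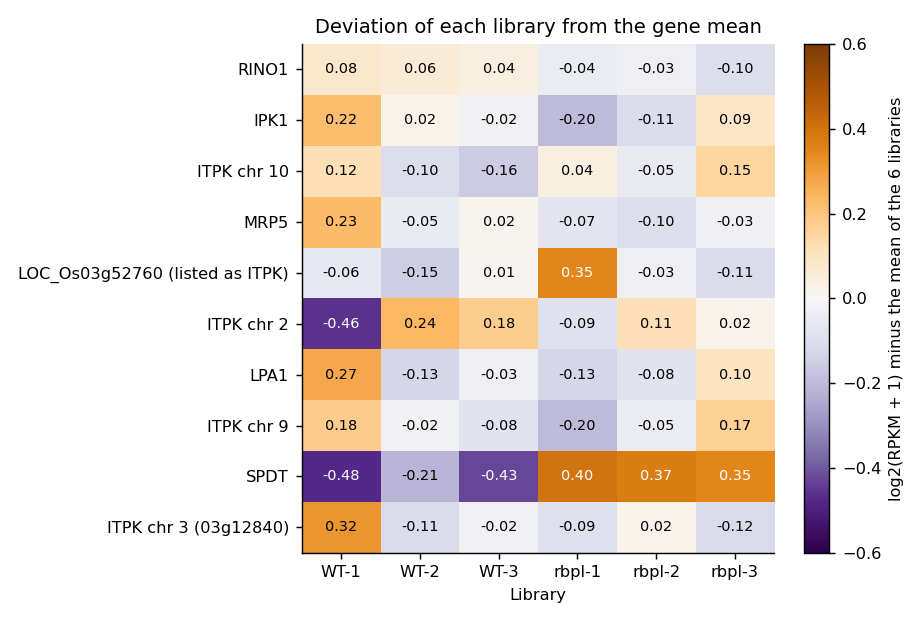
Each cell gives log2(RPKM + 1) of a gene in a library minus the mean of its 6 libraries, with genes in order of level. The row of SPDT is below 0 in all wild-type libraries and above 0 in all rbpl libraries; the column of WT-1 holds high values for LPA1 and low ones for LOC_Os02g26720, and rbpl-1 is high in LOC_Os03g52760.

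Among the rbpl libraries, rbpl-3 was the highest for LPA1, MRP5, IPK1, LOC_Os10g01480 and LOC_Os09g34300 and the lowest for RINO1, SPDT, LOC_Os03g52760 and LOC_Os03g12840. The spread within rbpl was small for SPDT, MRP5 and RINO1, with coefficients of variation of 1.81%, 2.54% and 2.60%, and larger for LOC_Os03g52760 at 18.4%, LOC_Os09g34300 at 14.1% and IPK1 at 10.3%.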

How the data were processed

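Libraries of 3 wild-type and 3 rbpl seed samples were prepared with a NEBNext Ultra kit, per the labels' protocols. The authors deposited 1 table with the RPKM of each library for 55986 loci, per the file headers; which aligner, counter, build and annotation were used is not given in the sources used here. Marker genes were not used to check the seed label, since the file pairs no names with its identifiers, and 0 of its identifiers matched the 39387 rice genes of RefSeq. The other pathway genes and markers that were to be looked up by symbol were therefore not placed. Members take their names from the list.

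Changes were tested with limma 3.58.1 in R 4.3.3, with its robust and trend options and without covariates, on log2(RPKM + 1) of loci with a mean of at least 1 RPKM in 1 or both groups. All 10 members were named, and beside RINO1 the 2 loci with the most similar centred pattern. Members, lists and settings were chosen with earlier results of these data known. Whole reads and library totals were recovered from the RPKM steps (32287 of 32287 loci above 0 came out whole in all libraries, tolerance 0.001 reads; a divisor shared by all 6 counts cannot be seen) and used for depth and for limma-voom. The limma fit and the recovery of reads were also run on simulated data. For limma, the simulated loci all had the same spread and no library was set off as WT-1 is. That run therefore cannot show how well the limma calls hold here. Python 3.11.15 with numpy 2.4.6 and pandas 2.3.3 was used for the other steps and matplotlib 3.10.9 for the plots.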

Additional observations from a re-analysis of the deposited data

How the results depend on the processing

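Of 14 alternatives, all planned, 12 again called SPDT alone among the tested genes of the list. 1 of these 12, the filter at 5 RPKM, is no support. It kept SPDT only through the group where it is high (mean of 5.28 RPKM in rbpl, 2.76 RPKM in the wild type). RBP-L was lower and past the threshold in all 14 (log2 fold changes from −1.93 to −1.79). Leaving out 1 library gave 0 to 1 called genes, 0 without rbpl-1 and 0 without rbpl-2, where the adjusted p of SPDT by limma was 0.0562 and 0.0522; over all loci these 2 fits called 356 and 389 against 1148, while the fit without WT-1 called 3130. Over all alternatives its log2 fold change ran from 0.69 to 0.95 and its adjusted p from 0.001 to 0.0562. RINO1, IPK1, MRP5 and LOC_Os10g01480 kept their sign in all 14 and were called in 0 of them, but their size moved: RINO1 from −0.13 to −0.04, IPK1 from −0.23 to −0.07, MRP5 from −0.19 to −0.05 and LOC_Os10g01480 from 0.04 to 0.17. Small differences turned sign elsewhere: without WT-1, LPA1 (0.043), LOC_Os09g34300 (0.028) and LOC_Os02g26720 (−0.19); without rbpl-1, LOC_Os09g34300 (0.036) and LOC_Os03g52760 (−0.0033); without rbpl-2, LOC_Os02g26720 (−0.015); and under median-of-ratios scaling, LOC_Os09g34300 (0.019). Across single-library omissions, LPA1 lay between −0.16 and 0.043, LOC_Os02g26720 between −0.19 and 0.16, LOC_Os09g34300 between −0.15 and 0.036 and LOC_Os03g52760 between −0.0033 and 0.23. None of these passed the threshold, and the cause was not tested. The untested LOC_Os03g12840 differed by −0.12 on the log2(RPKM + 1) scale and by −0.28 to 0.0043 under its 7 alternatives.

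Libraries of the same replicate number are not said to be paired. Correlations of same-numbered libraries, after the group means were taken off, were 0.0476, 0.259 and −0.380, and 2 of the 6 were closest to their own number. With 3 libraries per group and WT-1 set off from the rest, these values cannot decide whether the libraries were paired. In the fit with a replicate block, 963 loci changed against 1148, and SPDT had an adjusted p of 0.0168. Median-of-ratios scaling left 1130 calls, 702 that rose and 428 that fell, against 605 and 543. At these depths the rise of SPDT rests on 300 to 678 reads per library, and LOC_Os03g12840 on 37 to 87.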
